A study of Mus musculus with 12 samples.

Results

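The genes described here are the organic ion and drug transporters of the mouse kidney cortex: the SLC22 family, the organic anion transporting polypeptides (Slco), the MATE exporters (Slc47a), and the B, C and G families of ATP-binding cassette (ABC) pumps. They were taken by symbol from a table of 55450 genes. The symbols matched 69 genes, of which 60 had at least 15 counts over 12 libraries and were kept. Another 9 were below that minimum. Of the 60 genes, 51 had enough counts in the groups to be tested and 9 did not.

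Outer cortex of the kidney was sequenced from FVB/N mice aged 12 weeks, in 4 groups of 3 mice: C16-treated Tg26, Tg26, C16-treated WT and WT. Tg26 mice are hemizygous for an HIV-1 transgene with regulatory and accessory genes and are a model of HIV-associated nephropathy. Their WT counterparts lacked the transgene. C16, an inhibitor of the double-stranded RNA sensor PKR, was injected into the abdomen of the treated mice at 10 µg/kg, in 10 ml/kg of dilute DMSO in buffered saline, from week 6 to week 12. What the untreated mice received was not given in the sources used here. The study used mice of both sexes, and the labels gave no sex for each mouse. The 12 libraries here all had the transcripts of male mice, as given below.

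Proximal tubule cells clear drugs, toxins and metabolites from blood into urine in a relay. Uptake carriers of the basolateral membrane, among them OAT1, OAT3 and OCT2, bring organic anions and cations into the cell, and apical exporters such as MATE1, MRP2, MRP4 and BCRP pass them on into the lumen. Other members carry urate, carnitine, prostaglandins, bile acids or cholesterol, and several ABCB proteins work inside mitochondria and other organelles.

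The libraries held 19877877 to 27000388 gene counts. Levels are given as CPM, the counts scaled to a common library size by edgeR's TMM, whose factors ran from 1.08 to 1.22 in Tg26 mice and from 0.901 to 0.921 in WT mice. Proximal tubule markers were present in every library. The 36 proximal tubule markers summed to 34067, 61421 and 62566 CPM in Tg26 replicates 1, 2 and 3 and to 90884 to 93235 CPM in WT cortex. None was at 0 in all libraries. Xist had 0 to 8 counts in each library, and Y-linked transcripts were present in all 12, the pattern of male mice. The Y-linked covariate used below therefore does not separate sexes. Its mean log2 CPM was 4.68, 4.92 and 5.26 in Tg26 mice and 5.05, 5.25 and 5.38 in WT mice. Differences were tested by the quasi-likelihood method of edgeR with all 12 libraries in the fit, and a transporter counted as called where its p, adjusted by Benjamini-Hochberg over 16094 genes, was under 0.05. Each p-value sets a difference between groups against the spread between the mice sequenced, as estimated from the libraries in the fit.

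In WT cortex, the carriers of urate and organic anions had the highest levels per kilobase of exon. Slc22a12 (URAT1, the apical urate exchanger) averaged 611 ± 189 CPM per kb (SD, n = 3) and Slc22a6 (OAT1) averaged 485 ± 60.7 CPM per kb, and their ranges over mice overlapped. Below them were Slc22a18 at 294 ± 19.8, Slco1a6 at 241 ± 43.7 and Slc47a1 at 230 ± 14.5 CPM per kb. Each of these overlapped with the next, and all were below every WT value of Slc22a6. Slco1a1 (180 ± 41.4), Slc22a2 (144 ± 21.4) and Slc22a8 (124 ± 4.12) followed in CPM per kb, again with overlap between neighbours. Slc22a5, the carnitine carrier, averaged 96.7 ± 14.0 CPM per kb, and its highest mouse was below the lowest for Slc22a8. Slc22a12 overlaps Nrxn2 on the opposite strand over 24.7% of its read-length stretches, and whether the counting used strand was not given in the sources used here.

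In Tg26 cortex, 3 of 12 organic anion carriers and 4 of 6 organic cation and carnitine carriers of SLC22, and the gene of the exporter MATE1, were lower than in WT cortex, whereas several pumps and OATPs that are low in WT cortex were higher. Of the 51 transporter genes tested, 16 (31.4%) fell, 8 (15.7%) rose and 27 were not called in Tg26 against WT mice. Over all genes tested, 10.5% fell and 15.7% rose, 26.2% in either direction. The share of transporter genes that rose was thus no larger than that over all genes. The median log2 fold change was -0.42 over the 51 genes, beside -0.01 over all genes tested; limma-voom gave -0.27 and did not call Slc22a2, Slc22a5 and Slc22a8. Fold changes of 37 genes were negative. All 24 called genes had no overlap between Tg26 and WT mice. Overlap was not counted over all genes, so this is a description and not further support for the calls. Leaving out WT replicate 1 or WT replicate 2 brought the genes that fell to 8 and 7, beside 6.74% and 4.08% of all genes. Leaving out WT replicate 2 brought those that rose to 5, beside 11%. Without Tg26 replicate 1, 11 fell and 6 rose, beside 6.02% and 10.3% of all genes, and the median was -0.32. With library sizes only, in place of TMM, 4 fell and 10 rose, beside 1.7% and 32.7% of all genes tested. With the mean of Y-linked genes as a covariate 3 fell and 6 rose, beside 2.33% and 8.06%. With the WT and Tg26 libraries alone in the fit 2 fell and 8 rose, beside 1.55% and 11.6%. Since whole cortex was sequenced, fewer tubule cells and less RNA per cell cannot be told apart. Proximal tubule markers moved alongside: 19 of 36 fell and 1 rose, with a median log2 fold change of -0.63, and 7 of the 16 fallen transporter genes had a lower fold change than this median. Their part in the result was not tested.

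Among the organic anion transporters of SLC22, 3 of 12 fell, 0 rose and all 12 had negative fold changes (median log2 fold change -0.59). Slc22a6 encodes OAT1, the basolateral carrier that exchanges para-aminohippurate and many anionic drugs for a dicarboxylate (ENSMUSG00000024650.5, chromosome 19, 8618039 to 8628299, mm10). It was at 1047, 1600.4 and 1252 CPM in the Tg26 kidneys, against 1972, 2151 and 1673 CPM in the WT kidneys. The highest Tg26 mouse was just below the lowest WT mouse. The log2 fold change was -0.57 (SE 0.17, adjusted p = 0.0301, edgeR). Slc22a8 encodes OAT3, which lies next to Slc22a6 on chromosome 19, 6203 bases away. It ranged from 311 to 358 CPM in Tg26 cortex and from 467 to 495 CPM in WT cortex (log2 fold change -0.56, SE 0.19, adjusted p = 0.0485, edgeR). Slc22a22, a prostaglandin-specific anion transporter of mouse kidney, ranged from 28.1 to 96.1 CPM in Tg26 cortex and from 119 to 140.2 CPM in WT cortex (log2 fold change -1.02, SE 0.32, adjusted p = 0.0336, edgeR). The urate exchanger Slc22a12 was not called: it was at 979, 1146 and 748 CPM in Tg26 cortex and 1788, 1427.5 and 935 CPM in WT cortex, with overlap. Slc22a30 ranged from 53.1 to 203 CPM in Tg26 cortex and from 205 to 304 CPM in WT cortex, without overlap, but did not pass the test (log2 fold change -0.96, SE 0.36, adjusted p = 0.0724, edgeR). It shares 20.9% of its read-length stretches with other genes, mostly its neighbour Slc22a28, so the split of reads between them is uncertain.

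Organic cation and carnitine transporters also fell, with 4 of 6 lower, 0 higher and all 6 negative. Slc22a2 (OCT2), which takes up creatinine and metformin, ranged from 176 to 302 CPM in Tg26 cortex and from 303 to 410 CPM in WT cortex (log2 fold change -0.57, SE 0.18, adjusted p = 0.0388, edgeR). The gap between these groups was narrow. Slc22a4, the ergothioneine carrier OCTN1 (ENSMUSG00000020334.6, chromosome 11, 53983123 to 54028090), was at 26.4, 46.1 and 47.9 CPM in Tg26 cortex, against 71.4, 77.2 and 59.9 CPM in WT cortex. Every Tg26 mouse was below every WT mouse (log2 fold change -0.79, SE 0.20, adjusted p = 0.0135, edgeR). Slc22a5, the carnitine carrier OCTN2, had a log2 fold change of -0.52 (SE 0.15, adjusted p = 0.0262, edgeR) and shares 12.7% of its read-length stretches with Slc22a21. Slc22a21 and Slc22a3 were not called.

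The apical exporter that works with these uptake carriers also fell. Slc47a1 encodes MATE1, which exchanges protons for organic cations at the brush border (ENSMUSG00000010122.14, chromosome 11, 61343401 to 61378345). It was at 319, 599 and 534 CPM in Tg26 cortex, against 822, 787 and 725 CPM in WT cortex. No Tg26 mouse reached the lowest WT value, and the first Tg26 mouse was lowest (log2 fold change -0.69, SE 0.19, adjusted p = 0.0200, edgeR). Slc47a2, the adjacent MATE gene, had 2 to 16 counts per library and was not tested. Slc22a18, an imprinted member of SLC22 with few known substrates (ENSMUSG00000000154.16, chromosome 7, 143473736 to 143499334), was at 181, 330.4 and 358 CPM in Tg26 cortex, against 461, 525 and 511 CPM in WT cortex. The groups did not overlap (log2 fold change -0.79, SE 0.21, adjusted p = 0.0178, edgeR). In the opposite direction, Slc22a15, a low-level member, ranged from 2.17 to 2.72 CPM in Tg26 cortex and from 0.732 to 1.1 CPM in WT cortex (2.82-fold higher, SE of the log2 fold change 0.45, adjusted p = 0.0306, edgeR).

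**Figure D1:**
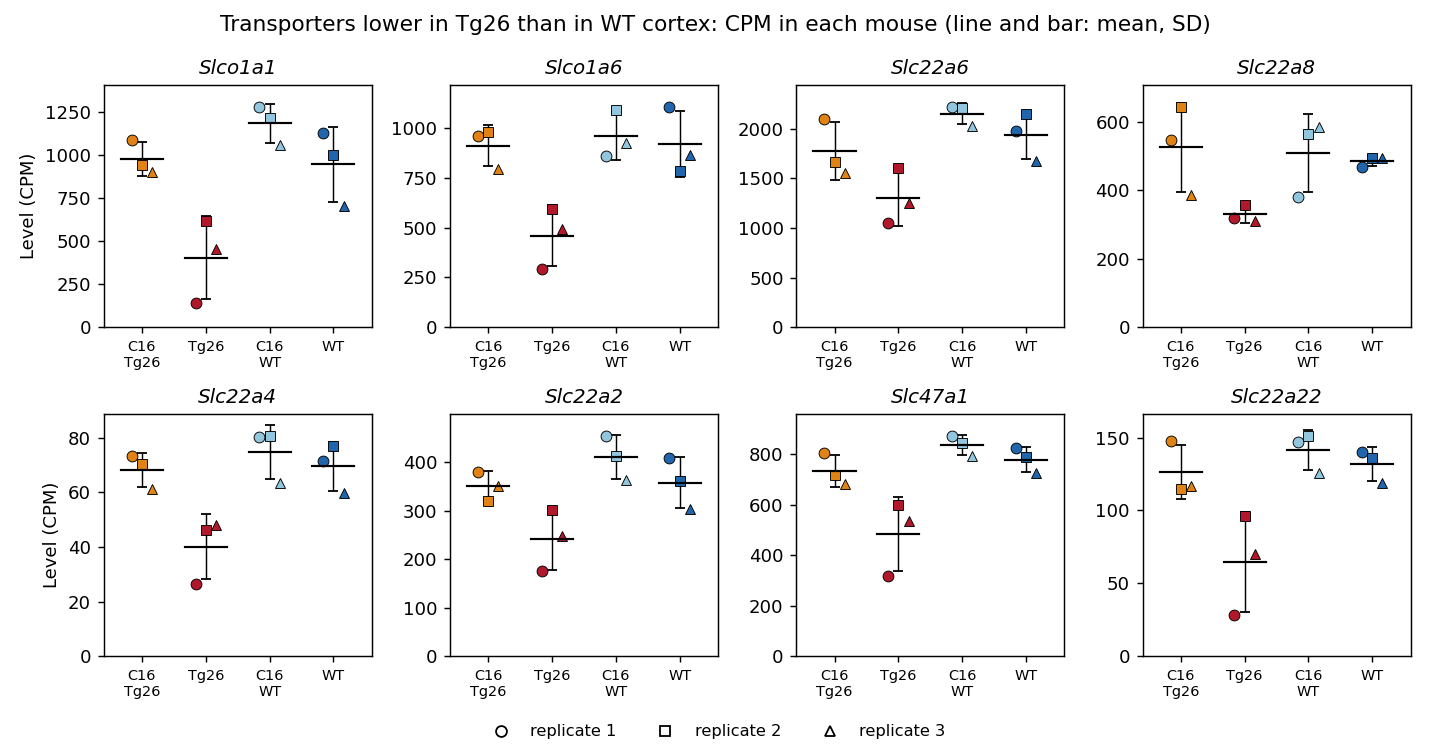
CPM of 8 transporter genes that fell in Tg26 mice, 1 panel a gene, with each mouse as a point (shape gives the replicate number), the group mean as a line and the SD as a bar. Tg26 points lie below all WT points in each panel, and Tg26 replicate 1 is the lowest Tg26 mouse for Slco1a1, at 142 CPM.

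The OATPs split. Of 9 tested, 2 fell and 3 rose. Both genes that fell, Slco1a1 and Slco1a6, are abundant rodent OATPs of the proximal tubule that carry steroid conjugates and other organic anions. Slco1a1 had the lowest log2 fold change of the 24 called genes, -1.23 (SE 0.39, adjusted p = 0.0351, edgeR), and ranged from 142 to 616 CPM in Tg26 cortex and from 707 to 1133 CPM in WT cortex. Slco1a6 was at 293, 592 and 491 CPM in Tg26 cortex, against 1105, 786 and 866 CPM in WT cortex (log2 fold change -1.0, SE 0.23, adjusted p = 0.00855, edgeR). No mouse of either gene crossed between the groups.

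The 3 OATPs that rose were low in WT cortex. Slco4a1, a widely expressed carrier of thyroid hormones and prostaglandins (ENSMUSG00000038963.15, chromosome 2, 180456245 to 180474867), was at 15.4, 10.8 and 16.5 CPM in Tg26 cortex, against 4.39, 5.07 and 3.03 CPM in WT cortex. Its level was 3.40-fold higher in Tg26 mice (log2 fold change 1.77, SE 0.31, adjusted p = 0.00229, edgeR), and the groups lay far apart. Slco2a1 encodes the prostaglandin transporter PGT, which clears prostaglandins for breakdown (ENSMUSG00000032548.14, chromosome 9, 102988712 to 103096002). It was at 48.1, 34.5 and 36.7 CPM in Tg26 cortex, against 23.5, 25.8 and 26.6 CPM in WT cortex (log2 fold change 0.65, SE 0.13, adjusted p = 0.00390, edgeR). Slco2b1 ranged from 19.0 to 29.6 CPM in Tg26 cortex and from 14.0 to 15.4 CPM in WT cortex (log2 fold change 0.68, SE 0.17, adjusted p = 0.0133, edgeR). Slco3a1 and Slco4c1 were not called, and the sign of Slco4c1 changed with the processing. The low counts of Slco1b2, a liver OATP, were highest in WT replicate 1 with 28 counts and were 0 to 17 in the other libraries. The hepatocyte markers Alb and Apoa1, picked after their values were seen, were also highest there, at 47.1 and 13.9 CPM. The sum of all 8 hepatocyte markers was not highest there. It was 115 CPM in WT replicate 1, 164 CPM in WT replicate 3, and 692 and 240 CPM in Tg26 replicates 1 and 3. Of the 8 hepatocyte markers, 1 (Fgb) rose, 0 fell and 5 were negative in Tg26 against WT mice. They summed to 103 to 692 CPM in Tg26 cortex and 109 to 164 CPM in WT cortex, and Fga made up 575 CPM of the highest sum, in Tg26 replicate 1.

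ABCC export pumps moved in both directions, with 3 of 7 higher and 1 lower. Abcc3 encodes MRP3, a basolateral pump for glucuronides and bile acids (ENSMUSG00000020865.16, chromosome 11, 94343295 to 94392997). It was at 14.6, 8.87 and 9.94 CPM in Tg26 cortex, against 2.47, 2.45 and 2.99 CPM in WT cortex. This was the highest fold change of the 51 genes, 4.23-fold (log2 fold change 2.08, SE 0.28, adjusted p = 0.000566, edgeR), with no overlap. Abcc1 (MRP1, which exports glutathione conjugates and leukotriene C4) ranged from 19.5 to 24.5 CPM in Tg26 cortex and from 12.0 to 16.2 CPM in WT cortex, and had a log2 fold change of 0.65 (SE 0.18, adjusted p = 0.0215, edgeR). Abcc5 (MRP5, an exporter of cyclic nucleotides) rose by 0.38 on the log2 scale (SE 0.09, adjusted p = 0.0110, edgeR). Abcc6, whose loss causes ectopic mineralization, fell: it was at 6.82, 9.11 and 11.9 CPM in Tg26 cortex, against 15.7, 15.4 and 18.3 CPM in WT cortex (log2 fold change -0.83, SE 0.18, adjusted p = 0.00795, edgeR). The apical pumps Abcc2 (MRP2; 170, 211 and 187 CPM in Tg26 cortex, 197, 272 and 255 CPM in WT cortex) and Abcc4 (MRP4; 59.3, 29.0 and 24.7 CPM in Tg26 cortex, 21.5, 28.6 and 22.1 CPM in WT cortex) were not called. Tg26 replicate 1 stood above all other mice for Abcc4.

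ABCG and ABCB pumps differed by member. Abcg1, a cholesterol efflux transporter of macrophages and other cells (ENSMUSG00000024030.7, chromosome 17, 31057675 to 31117988), was at 17.3, 13.9 and 10.4 CPM in Tg26 cortex, against 7.19, 7.73 and 6.89 CPM in WT cortex (log2 fold change 0.93, SE 0.19, adjusted p = 0.00530, edgeR). Abcg2 encodes BCRP, an apical pump for urate and drugs (ENSMUSG00000029802.13, chromosome 6, 58584523 to 58695676), and was at 297, 350.4 and 321 CPM in Tg26 cortex, against 425, 448 and 440.5 CPM in WT cortex. All Tg26 values of Abcg2 were lower (log2 fold change -0.44, SE 0.10, adjusted p = 0.00861, edgeR). P-glycoprotein, encoded in mice by Abcb1a and Abcb1b, was not called at either gene: the log2 fold changes were -0.05 (SE 0.26) and 0.48 (SE 0.29). Of 5 ABCB genes whose products lie in organelles, 3 fell and 0 rose. Abcb8, of the inner mitochondrial membrane (ENSMUSG00000028973.18, chromosome 5, 24393663 to 24410054), was at 65.3, 74.7 and 70.8 CPM in Tg26 cortex, against 90.9, 95.4 and 87.8 CPM in WT cortex (log2 fold change -0.38, SE 0.09, adjusted p = 0.00961, edgeR). Abcb6, a porphyrin-associated transporter (ENSMUSG00000026198.15, chromosome 1, 75171717 to 75180392), was at 35.5, 44.6 and 50.7 CPM in Tg26 cortex and 59.6, 60.3 and 61.9 CPM in WT cortex. Its log2 fold change was -0.48 (SE 0.12, adjusted p = 0.0125, edgeR), and 45.1% of its read-length stretches are shared with Gm29253, which overlaps it on the same strand. Abcb10, which acts in mitochondrial heme synthesis, had a log2 fold change of -0.35 (SE 0.10, adjusted p = 0.0188, edgeR).

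**Figure D2:**
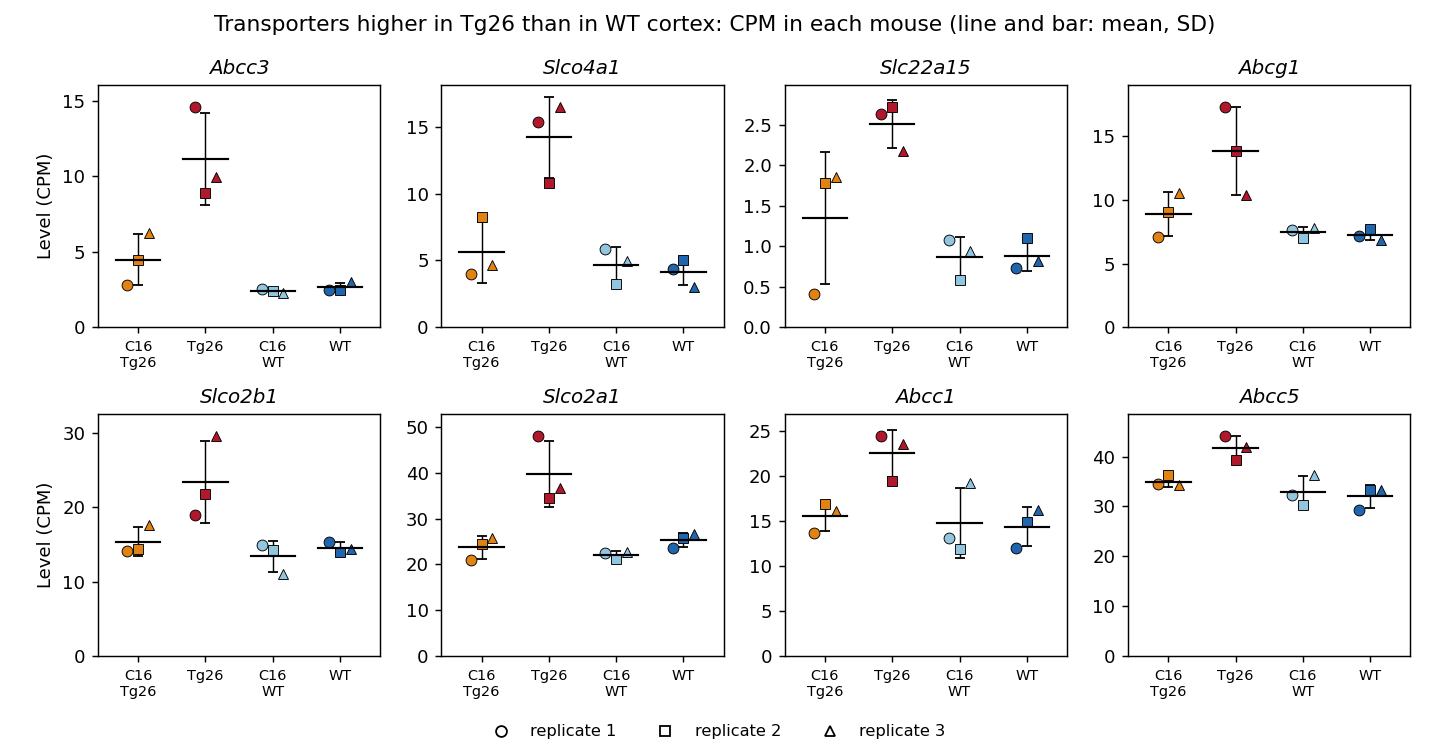
CPM of the 8 transporter genes that rose in Tg26 mice, 1 panel a gene, with each mouse as a point (shape gives the replicate number), the group mean as a line and the SD as a bar. Every Tg26 mouse lies above every WT mouse in each panel, and for Abcc3 the C16-treated Tg26 mice lie at 2.81 to 6.22 CPM.

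How far these calls rested on a single mouse was checked by leaving out each of the 12 libraries in turn. Abcc3, Slco4a1, Slco2a1, Abcg1, Abcc5, Abcc6, Abcg2, Slco1a6, Abcb6 and Abcb8 were called in all 12 fits. Slc22a18, Slc22a4 and Slco2b1 lost the call without WT replicate 2, with adjusted p = 0.0585, 0.0539 and 0.0528 (edgeR). Slco1a1 and Slc47a1 lost it without WT replicate 1 or WT replicate 2, with adjusted p of at most 0.0981 and 0.0581 (edgeR), and Abcb10 and Abcc1 lost it when WT replicate 1, WT replicate 2 or Tg26 replicate 1 was removed, with at most 0.0642 and 0.0803 (edgeR). Slc22a22 held in 9 fits, Slc22a5 in 9, Slc22a6 in 8, Slc22a15 in 7, Slc22a2 in 6 and Slc22a8 in 3 of 12, and their highest adjusted p values were 0.0839, 0.0974, 0.109, 0.0926, 0.126 and 0.117 (edgeR). No called gene changed sign.

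Markers of some other cells also moved in Tg26 mice, and most markers of other tubule segments were not called. Of 6 thick ascending limb markers, 0 rose and 0 fell (median log2 fold change 0.009). Of 13 distal tubule and collecting duct markers, 2 rose and 1 fell (median -0.055). Among podocyte, endothelial and lymphocyte markers, 1 of 8, 3 of 12 and 2 of 12 rose and 0 fell. All 16 macrophage markers, all 10 fibroblast and mural markers and 11 of 12 markers of injured proximal tubule rose, with median log2 fold changes of 2.86, 2.53 and 2.75. Macrophage markers summed to 723 to 1250 CPM in Tg26 cortex and 106 to 141 CPM in WT cortex. Fibroblast and mural markers summed to 2041, 739 and 519 CPM in Tg26 replicates 1, 2 and 3 and to 135 to 159 CPM in WT cortex. Injured proximal tubule markers summed to 5643, 1754 and 1985 CPM in these Tg26 replicates and to 559 to 777 CPM in WT cortex. Tg26 replicate 1 was the highest for both. No marker of these lists was at 0 in all libraries. Their part in the transporter genes that rose was not tested.

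Genes that work with these transporters, and factors known to regulate them, were also examined. Of 22 tested partners of organic ion transport, 5 fell and 1 rose, with a median log2 fold change of -0.43. Pdzk1, a scaffold of brush border transporters, was at 904, 1399 and 1032 CPM in Tg26 cortex and 1997, 1602 and 1476 CPM in WT cortex (log2 fold change -0.61, SE 0.18, adjusted p = 0.0309, edgeR). Slc13a3, which supplies the dicarboxylate that OAT1 and OAT3 exchange, had a log2 fold change of -0.58 (SE 0.19, adjusted p = 0.0444, edgeR), and the urate carrier Slc2a9 one of -0.48 (SE 0.15, adjusted p = 0.0340, edgeR). Of 19 transcription factors and nuclear receptors, 5 fell and 0 rose. Hnf4a was at 586, 728 and 634 CPM in Tg26 cortex and 1047, 929 and 925 CPM in WT cortex (log2 fold change -0.58, SE 0.13, adjusted p = 0.00865, edgeR). Hnf4a is a nuclear receptor of the proximal tubule. The xenobiotic sensors Nr1i2, Nr1i3, Ahr and Nfe2l2 were not called. Of 7 genes higher in male mouse kidney, 4 fell (median log2 fold change -0.93); several Slco and Slc22 genes of mouse kidney are known to be under androgen control, and the part of these genes was not tested.

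Because HNF4 binds promoters of several SLC22 genes, the RefSeq promoter windows of the genes were searched, from 250 bases before to 50 bases after the start (GRCm38.p6). Windows were found for 45 of the 60 genes, including 12 that fell and 5 that rose. The search covered both strands for CAAAGNNCA, an HNF4 pattern, TGACNNNGC, the antioxidant response element, and TATAAA, the TATA box. CAAAGNNCA was present in 1 of the 12 windows of genes that fell, that of Slco1a6, in 0 of 5 that rose, in 2 of 22 not called, and in 6.36% of all 32851 promoters. TGACNNNGC was in 0 of 12, 0 of 5, 6 of 22 and 12.4% of all promoters. TATAAA was in 3 of 12, 1 of 5, 2 of 22 and 13.6% of all promoters. Windows of the genes that fell had a median GC content of 53.7% and a median of 2.5 CpG, those of genes that rose 64% and 24, and all promoters 52.7% and 7. The ranges overlapped, with 0 to 34 CpG in genes that fell and 5 to 29 in genes that rose: Slc22a5 and Slc22a4, which fell, had 34 and 29, and Slco2b1, which rose, had 5. The windows below show 4 genes that fell and 2 that rose, picked after their values were seen and not to stand for either group; capitals mark the CAAAGNNCA match.
Slc22a6, chr19:8617746-8618045, plus strand: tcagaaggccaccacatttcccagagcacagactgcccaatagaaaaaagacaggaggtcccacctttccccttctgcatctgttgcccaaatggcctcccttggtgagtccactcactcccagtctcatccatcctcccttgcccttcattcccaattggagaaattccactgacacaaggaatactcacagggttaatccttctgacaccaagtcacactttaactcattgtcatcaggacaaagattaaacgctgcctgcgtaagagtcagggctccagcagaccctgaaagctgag
Slc22a8, chr19:8592932-8593231, plus strand: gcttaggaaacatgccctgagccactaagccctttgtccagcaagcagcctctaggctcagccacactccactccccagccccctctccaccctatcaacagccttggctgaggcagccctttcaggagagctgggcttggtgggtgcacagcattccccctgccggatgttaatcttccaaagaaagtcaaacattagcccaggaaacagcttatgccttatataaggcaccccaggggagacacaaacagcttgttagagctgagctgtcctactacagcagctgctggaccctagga
Slco1a6, chr6:142186100-142186399, minus strand: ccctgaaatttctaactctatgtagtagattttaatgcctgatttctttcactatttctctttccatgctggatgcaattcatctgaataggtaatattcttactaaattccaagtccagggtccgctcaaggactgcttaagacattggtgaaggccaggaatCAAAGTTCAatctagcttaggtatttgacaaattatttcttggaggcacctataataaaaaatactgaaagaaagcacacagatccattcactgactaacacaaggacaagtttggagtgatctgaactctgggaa
Slco1a1, chr6:141946913-141947212, minus strand: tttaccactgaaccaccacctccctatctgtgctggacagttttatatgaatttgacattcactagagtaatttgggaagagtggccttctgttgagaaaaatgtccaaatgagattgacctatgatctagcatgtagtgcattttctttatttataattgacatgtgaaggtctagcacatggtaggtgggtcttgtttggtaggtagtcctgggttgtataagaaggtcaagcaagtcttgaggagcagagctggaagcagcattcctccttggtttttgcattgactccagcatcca
Slco4a1, chr2:180455995-180456294, plus strand: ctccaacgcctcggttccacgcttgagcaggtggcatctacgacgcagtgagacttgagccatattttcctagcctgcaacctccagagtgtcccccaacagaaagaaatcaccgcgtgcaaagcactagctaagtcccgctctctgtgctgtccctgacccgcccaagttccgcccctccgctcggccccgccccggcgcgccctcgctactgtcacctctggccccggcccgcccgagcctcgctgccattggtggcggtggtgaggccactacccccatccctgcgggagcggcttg
Slco2a1, chr9:103008237-103008536, plus strand: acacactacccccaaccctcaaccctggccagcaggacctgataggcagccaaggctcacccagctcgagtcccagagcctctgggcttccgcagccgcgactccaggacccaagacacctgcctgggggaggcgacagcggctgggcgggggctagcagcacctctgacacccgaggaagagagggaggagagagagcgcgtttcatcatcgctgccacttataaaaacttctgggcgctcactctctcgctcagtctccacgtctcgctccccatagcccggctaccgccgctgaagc
The window of Slc22a8 has 1 CpG and that of Slco1a1 has 0, and Slco4a1 has 24 and Slco2a1 has 18. The RefSeq starts of Slc22a8, Slco1a6 and Slco2a1 lie 1928, 22372 and 19775 bases inside the outermost start of the gene in the annotation used for the counts.

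C16 treatment of Tg26 mice moved few transporter genes past the test. In C16-treated Tg26 against Tg26 mice, 1 of 51 rose (0.758% of all genes tested), 3 fell (2.66% of all genes tested, 3.42% in either direction) and 47 were not called. Slco1a6 rose: it was at 960, 978 and 793 CPM in C16-treated Tg26 mice, against 293, 592 and 491 CPM in Tg26 cortex (log2 fold change 0.99, SE 0.23, adjusted p = 0.0415, edgeR). All treated mice were above all untreated ones. Slco2a1, Abcc3 and Slco4a1 fell. These calls depended on the fit. The libraries of these groups alone gave 0 and 0, and the replicate block 0 and 0, and both called 0% over all genes. The covariate of Y-linked genes gave 0 higher and 1 lower, beside 0.087% and 0.497% of all genes. DESeq2 gave 11 higher and 5 lower, beside 4.5% and 7.67%.

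Slco2a1 was at 20.9, 24.5 and 25.9 CPM in C16-treated Tg26 mice, against 48.1, 34.5 and 36.7 CPM in Tg26 cortex (log2 fold change -0.74, SE 0.13, adjusted p = 0.0287, edgeR). Abcc3 was at 2.81, 4.43 and 6.22 CPM in C16-treated Tg26 mice, against 14.6, 8.87 and 9.94 CPM in Tg26 cortex (log2 fold change -1.31, SE 0.27, adjusted p = 0.0357, edgeR). Slco4a1 was at 3.98, 8.24 and 4.67 CPM in C16-treated Tg26 mice, against 15.4, 10.8 and 16.5 CPM in Tg26 cortex (log2 fold change -1.34, SE 0.30, adjusted p = 0.0410, edgeR). None of the 4 genes overlapped between these groups, which was not counted over all genes and is not further support for the calls. Without Tg26 replicate 1, C16-treated Tg26 replicate 1 or C16-treated Tg26 replicate 2, 0 of the 4 calls remained. Over all genes, 0.0123% were called higher and 0.0491% lower without Tg26 replicate 1. Without either of those C16-treated Tg26 replicates, 0% of all genes were called. Over the 12 fits that each left out 1 library, the call held in 9 for Slco2a1, 6 for Abcc3, 3 for Slco4a1 and 3 for Slco1a6. Proximal tubule markers summed to 66752 to 78521 CPM in C16-treated Tg26 mice and 34067 to 62566 CPM in Tg26 cortex, and macrophage markers to 297 to 594 CPM in C16-treated Tg26 cortex and 723 to 1250 CPM in Tg26 cortex. The part of these markers was not tested.

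The comparison of C16-treated Tg26 with Tg26 mice and that of Tg26 with WT mice share the Tg26 libraries, so their fold changes are not independent and no count or median over both is given. Slco1a1 was at 1092, 947 and 903 CPM in C16-treated Tg26 mice, against 142, 616 and 453 CPM in Tg26 cortex. Its log2 fold change of 1.28 (SE 0.39) did not pass the test (adjusted p = 0.0752, edgeR). Slc22a6 was at 2101, 1662.5 and 1551 CPM in C16-treated Tg26 mice (log2 fold change 0.45, SE 0.17, adjusted p = 0.133, edgeR) and overlapped with Tg26 mice. Slc22a8, Slc22a4 and Slc47a1 had no overlap between C16-treated Tg26 and Tg26 mice, with log2 fold changes of 0.67, 0.77 and 0.60, and did not pass the test. They are not the only genes without overlap here. Overlap was not counted over all genes, so it is a description and no support for a difference.

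**Figure D3:**
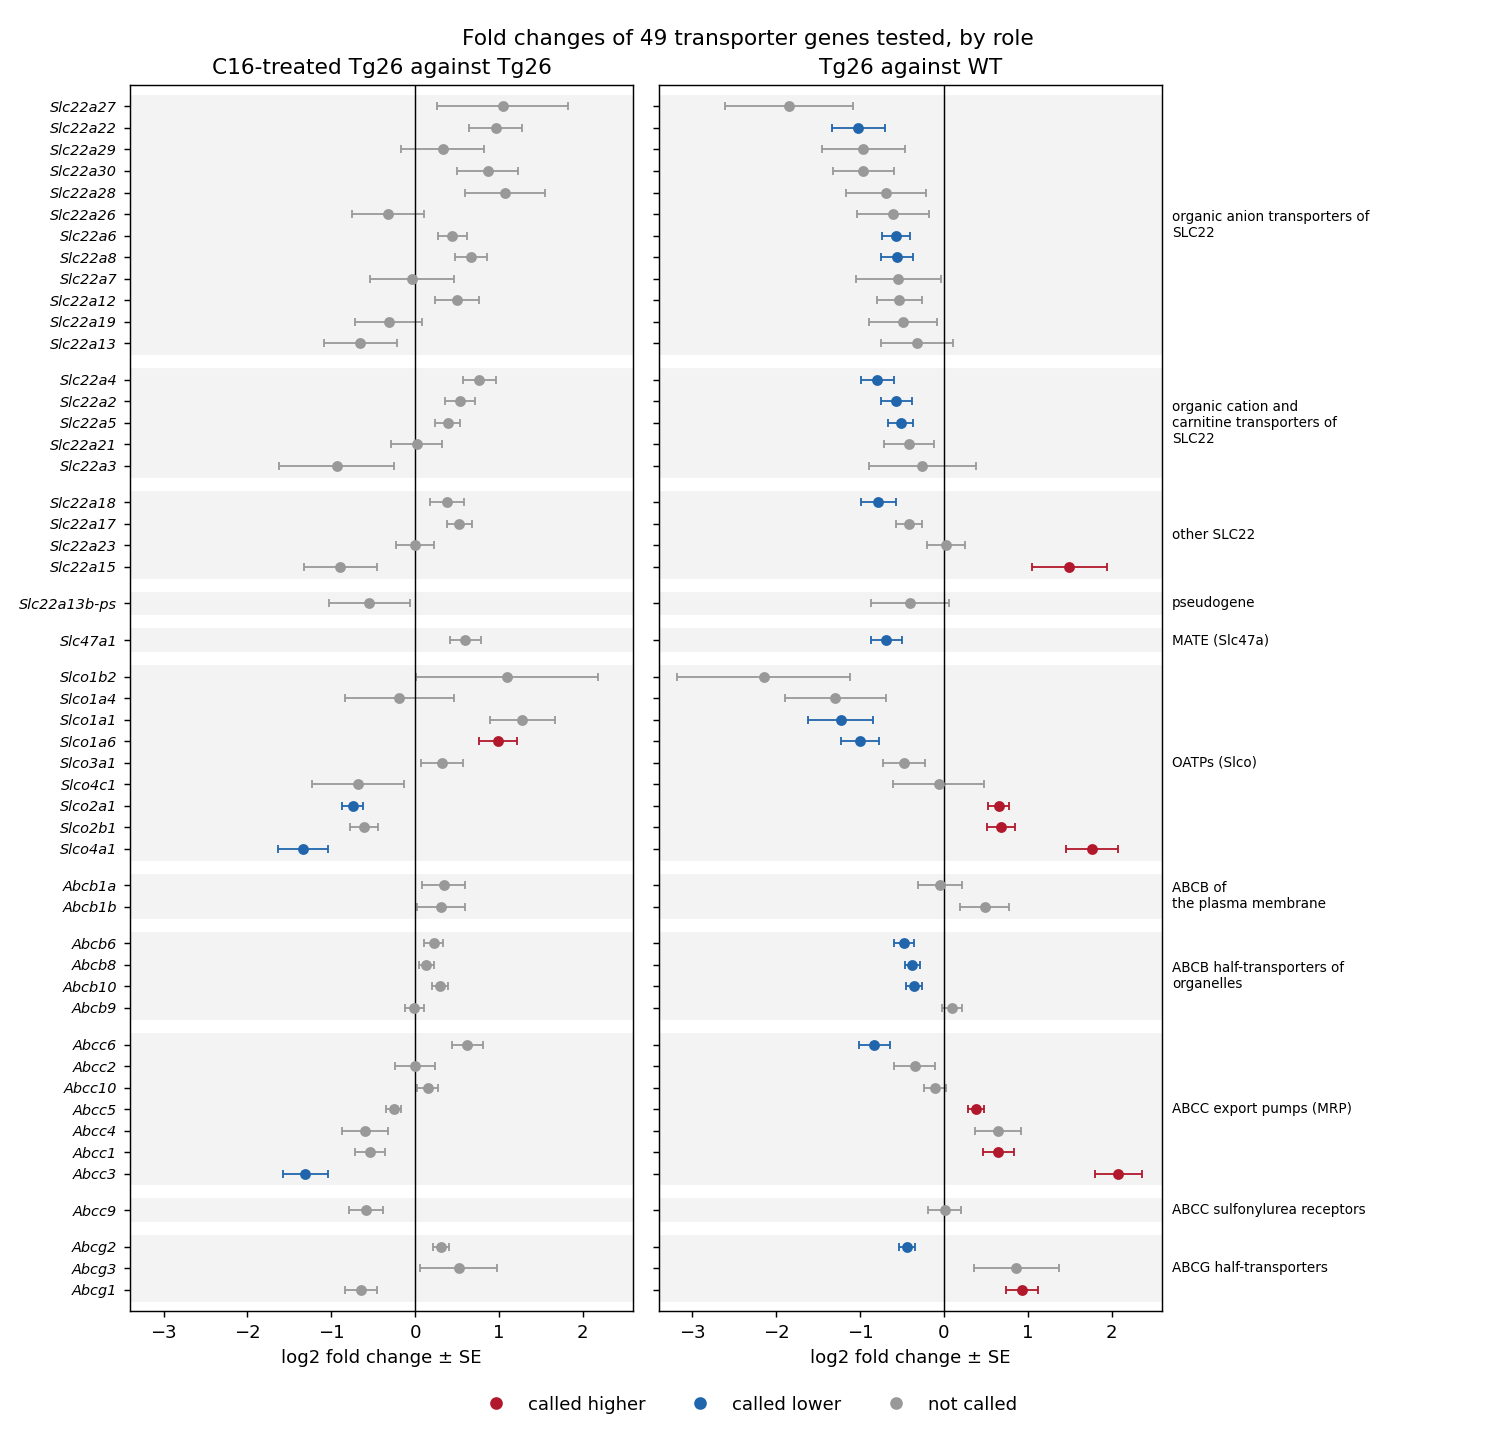
Log2 fold changes with SE bars of 49 of the transporter genes tested, grouped by role, for C16-treated Tg26 against Tg26 (left) and Tg26 against WT (right), both on the same scale. Red marks genes called higher, blue genes called lower and grey genes not called; the right panel holds 8 red and 15 blue points, the left panel 1 and 3.

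With C16 in mice without the transgene, and between C16-treated Tg26 mice and either WT group, edgeR called 0 of the 51 genes. In C16-treated WT against WT mice, 0 of 51 had an unadjusted p under 0.05 (edgeR), beside 1199 of the 16094 genes tested. DESeq2 and limma-voom also called 0 of the 51, and over all genes edgeR called 0%. For C16-treated Tg26 against WT mice, 7 of 51 had an unadjusted p under 0.05 (edgeR), beside 2771 of 16094 genes. DESeq2 called 0, and limma-voom called 1 higher and 2 lower, beside 6.45% and 4.71% of all genes. Over all genes edgeR called 1.35% higher and 0.236% lower, 1.59% in all. For C16-treated Tg26 against C16-treated WT mice, 3 of 51 had an unadjusted p under 0.05 (edgeR), beside 1492 of 16094 genes. DESeq2 and limma-voom called 0, and over all genes edgeR called 0.69% higher and 0.00621% lower, 0.696% in all. The interaction of genotype and C16 tests whether the effect of C16 differs between genotypes. It was called for 0 of 51 genes by edgeR, DESeq2 and limma-voom, and edgeR called 0% over all genes. At an unadjusted p under 0.05 (edgeR) there were 12 of the 51, beside 2047 of 16094 genes. The median log2 fold change of the 51 genes was 0.05 with C16 in WT mice, -0.09 in C16-treated Tg26 against WT mice and -0.13 in C16-treated Tg26 against C16-treated WT mice.

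Some transporters varied widely between mice of the same group. Over the 45 tested genes at a mean of 1 CPM or more, the SD of log2 CPM within groups ran from 0.075 to 0.85, with a median of 0.30. The 8 with the widest spread were Slco4c1 (0.85), Slc22a7 (0.81), Slc22a29 (0.74), Slc22a28 (0.70), Slc22a13 (0.66), Slc22a26 (0.63), Slc22a15 (0.61) and Slc22a19 (0.60). Slc22a28 shares 36.7% of its read-length stretches with other genes, mostly Slc22a30, and Slc22a13 shares 21.7% with the pseudogene Slc22a13b-ps. Slc22a7, the carrier OAT2, was at 147, 94.8 and 104 CPM in C16-treated Tg26 mice, 30.9, 182 and 142 CPM in Tg26 cortex, 323, 227 and 145 CPM in C16-treated WT mice, and 234, 164 and 119 CPM in WT cortex. Replicate 2 was the lowest C16-treated Tg26 mouse, replicate 1 the lowest Tg26 mouse and replicate 3 the lowest C16-treated WT mouse for 6 of the 8 genes each. Slc22a15 was an exception in all 3 groups, Slc22a29 in both C16-treated groups and Slc22a28 in Tg26 mice. Among WT mice, replicate 2 was the lowest for 4 of the 8. Of the 8, only Slc22a15 was called, in Tg26 against WT mice.

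**Figure D4:**
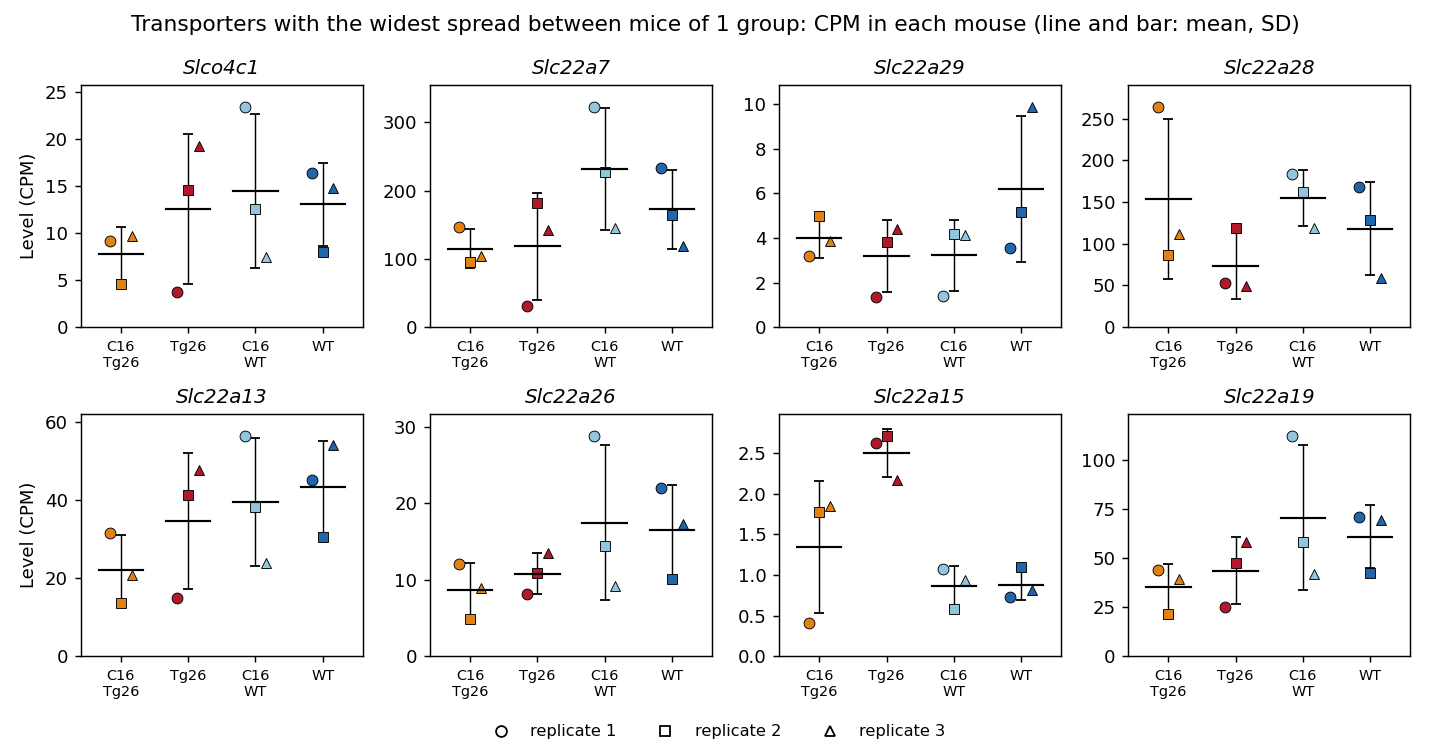
CPM of the 8 transporter genes with the widest spread between mice of a group, among those at a mean of 1 CPM or more, 1 panel a gene, with each mouse as a point (shape gives the replicate number), the group mean as a line and the SD as a bar. For Slc22a7 the Tg26 mice run from 30.9 to 182 CPM, and replicate 3 is the lowest C16-treated WT mouse in 6 of the 8 panels.

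Several genes of these families were barely detected in cortex. The 9 not tested were Abcb4, Abcb11, Abcc8, Abcg4, Abcg5, Abcg8, Slc47a2, Slco1a5 and Slco5a1. Abcb4, the phospholipid exporter of bile, had 0 to 14 counts per library, and Abcb11, the bile salt export pump of liver, had 0 to 4. No difference could be detected for them at this depth. The 9 genes under the minimum of 15 counts had totals of 0 to 10 over the 12 libraries, 6 of them 0.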

How the data were processed

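The 12 libraries were bulk RNA-seq of kidney cortex, 3 in each of 4 groups. Per the labels and the study's methods, the authors made stranded poly(A) libraries, used Cutadapt (1.18) for trimming, STAR (2.7.0f) for mapping to mm10 and RSEM (1.3.1) for estimates by gene of Ensembl 96. The table deposited holds those expected counts, raw and without fractions.

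Transporter genes were taken by symbol, with at least 15 counts over the 12 libraries. Genes passing filterByExpr (16094 of 55450) were scaled by TMM and fitted over the 4 groups with the quasi-likelihood test of edgeR (4.0.16, R 4.3.3), with no covariate, after a test on simulated data. Adjusted p are Benjamini-Hochberg values over all genes tested. Non-overlap means that every mouse of a group lay beyond every mouse of the other. Exon lengths, positions and shared stretches came from GENCODE annotation of the same build, and promoter windows from RefSeq. Figures were drawn with matplotlib (3.10.9).

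The genes, their roles and the marker lists were chosen with earlier results of these data known. Named were the genes called in any comparison and a set of well-known carriers; per-mouse values were given for up to 12 called genes a comparison, by smallest adjusted p within a role. Slc22a3, Slc22a21, Slc22a26, Slc22a28, Slco1b2, Alb, Apoa1, Fga, the untested genes and Xist were named after their values were seen. The alternatives were DESeq2 (1.42.0), limma-voom (limma 3.58.1), RLE, library sizes only, other filters, the replicate number as a block, the mean of 4 Y-linked genes as a covariate, fits restricted to the libraries of a comparison, and removal of each library in turn. Some genes that enter the counts are not reported here. No library was a duplicate of another of its group, and libraries of different groups were not checked for this. Samples with the same replicate number came from no stated pair.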

Additional observations from a re-analysis of the deposited data

How the results depend on the processing

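In Tg26 against WT mice, the genes that fell numbered 16, beside 10.5% of all genes tested. They numbered 4 with library sizes only (1.7% of all genes) and 3 with the covariate of Y-linked genes (2.33%). A fit of the WT and Tg26 libraries alone gave 2 (1.55%). Leaving out each library gave 7 (4.08%, without WT replicate 2) to 19 (10.6%, without Tg26 replicate 2). Those that rose numbered 8 (15.7% of all genes). When each library was left out, they numbered 5 (11%, without WT replicate 2) to 9 (16.9%, without Tg26 replicate 3). The median was -0.27 with limma-voom. With library sizes only, the median of all genes tested shifted to 0.29 and that of the transporter genes to -0.12, which is -0.42 relative to it. In C16-treated Tg26 against Tg26 mice, 1 rose and 3 fell. DESeq2 gave 11 and 5 (4.5% and 7.67% of all genes). No filter gave 6 that rose (1.07%), and library sizes only gave 2 (0.503%). The covariate of Y-linked genes gave 0 and 1 (0.087% and 0.497%). The replicate block gave 0 and 0, as did a fit of the libraries of these groups alone, both with 0% over all genes. Leaving out each library gave 0 to 11 that rose (0% to 3.91% of all genes) and 0 to 3 that fell (0% to 5.04%). The median there was 0.28, against 0.21 with limma-voom, 0.15 with library sizes only, 0.19 with no filter, 0.13 with the covariate and 0.095 to 0.30 when each library was left out. With C16 in WT mice, the median was 0.11 with library sizes only, 0.060 with the stricter filter and -0.0026 to 0.054 when each library was left out. For C16-treated Tg26 against WT mice, limma-voom called 1 higher and 2 lower, the median was 0.088 with library sizes only and -0.17 to -0.034 when each library was left out, and 0 to 1 fell. For C16-treated Tg26 against C16-treated WT mice, the median was -0.021 with library sizes only, and 0 to 1 rose when each library was left out. The log2 fold change of Slco4c1 in Tg26 against WT mice was 0.38 with limma-voom, 0.21 with library sizes only, 0.011 with the replicate block, 0.30 with the covariate and -0.52 to 0.36 when each library was left out. Of 18 pairs of same-numbered libraries, 7 had a correlation over 0.1 (median 0.046, range -0.23 to 0.23). Pairs with different numbers ranged from -0.34 to 0.34. Among replicate 1 libraries, pairs without the Tg26 library had 0.20 to 0.23, and pairs with it had -0.18 to 0.054. Whether same-numbered libraries deviated together was not tested. With the replicate block, 8 rose and 17 fell in Tg26 against WT mice, beside 14.7% and 10.4% of all genes. The cause of these changes was not tested.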
